A study of Caenorhabditis elegans with 2 samples.

Results

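Of the 28727 candidate regions that eGFP-NHR-11 gave in the pooled ChIP-seq list, 248 were X chromosome peaks outside promoters. They were chosen by 3 criteria: position on X, a pooled signal of 35 or more, and a summit outside every promoter window, defined as 1000 bp upstream to 200 bp downstream of an annotated protein-coding transcript 5′ end. The signal is the value that the authors' deposited list gives each candidate, on an unstated scale; a higher value means a stronger peak. The list held 2348 candidates at 35 or more, 418 of them on X, of which the other 170 had summits in promoters.

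The experiment was chromatin immunoprecipitation of NHR-11, a nuclear hormone receptor, in whole L1 larvae of mixed sex. There was 1 group with 2 biological replicates. Both came from strain OP305, which carries unc-119(ed3) III and the insertion wgIs305, so all animals share these alleles and the eGFP-tagged protein, and the antibody is labelled nhr-11. What drives the transgene is not given by the labels, and no untagged or other-stage group was analysed. Whole larvae mix many cell types, so a weak site in all cells and a strong site in a few cannot be told apart.

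Nuclear hormone receptors are zinc-finger transcription factors that bind short DNA words, and the family is greatly expanded in nematodes. In C. elegans the X chromosome is also bound by the dosage compensation complex, which lowers X expression in XX animals. That complex is first loaded at recruitment sites, called rex sites, which carry the motif enriched on X (MEX), whose core includes the word GCGCAGGG. Many worm transcripts are trans-spliced, so an annotated 5′ end may lie downstream of where transcription starts.

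The DNA under the strongest peaks is shown because the words described later lie there. Each line gives the summit base and 50 bases on each side of it for 1 of the 8 strongest peaks, from the RefSeq genome in the ce11 build, plus strand, 5′ to 3′, with peaks numbered by falling pooled signal. Capitals mark the word GCGCAGGG, or CGCAGGGAG with at most 1 mismatch, on either strand.
Peak 1, chrX:11094126-11094226: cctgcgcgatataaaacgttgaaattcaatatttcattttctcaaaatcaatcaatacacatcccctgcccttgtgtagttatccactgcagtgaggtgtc
Peak 2, chrX:12363148-12363248: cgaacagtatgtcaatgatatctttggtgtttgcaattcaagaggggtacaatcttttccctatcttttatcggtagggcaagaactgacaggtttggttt
Peak 3, chrX:9465825-9465925: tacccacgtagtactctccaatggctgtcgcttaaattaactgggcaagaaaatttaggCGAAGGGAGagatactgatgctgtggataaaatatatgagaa
Peak 4, chrX:13700771-13700871: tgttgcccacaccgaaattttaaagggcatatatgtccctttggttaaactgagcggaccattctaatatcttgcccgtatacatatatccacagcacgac
Peak 5, chrX:6296500-6296600: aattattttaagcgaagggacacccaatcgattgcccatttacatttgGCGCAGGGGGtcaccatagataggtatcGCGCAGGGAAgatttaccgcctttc
Peak 6, chrX:2997062-2997162: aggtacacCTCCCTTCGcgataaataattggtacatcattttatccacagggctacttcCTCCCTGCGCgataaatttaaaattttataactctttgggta
Peak 7, chrX:11937477-11937577: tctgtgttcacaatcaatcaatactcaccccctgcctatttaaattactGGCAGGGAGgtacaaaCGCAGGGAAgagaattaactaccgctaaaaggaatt
Peak 8, chrX:8036348-8036448: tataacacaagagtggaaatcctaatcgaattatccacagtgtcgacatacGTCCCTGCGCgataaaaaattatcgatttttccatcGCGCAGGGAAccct
Both copies of the exact word in peak 5 read on the plus strand. In peak 8 the copies read on opposite strands.

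The next strongest peaks that hold the exact word, and the highest-ranked weaker one, peak 150, are shown as 40 bases around it, from the same build and strand. Capitals mark GCGCAGGG or its reverse complement.
Peak 9, chrX:4209250-4209289: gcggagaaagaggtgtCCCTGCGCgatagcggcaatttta
Peak 10, chrX:806658-806697: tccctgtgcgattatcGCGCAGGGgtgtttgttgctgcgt
Peak 11, chrX:16682156-16682195: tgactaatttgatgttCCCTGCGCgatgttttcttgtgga
Peak 15, chrX:2364883-2364922: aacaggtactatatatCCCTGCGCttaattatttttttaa
Peak 16, chrX:13514542-13514581: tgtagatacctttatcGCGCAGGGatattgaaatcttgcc
Peak 150, chrX:4395599-4395638: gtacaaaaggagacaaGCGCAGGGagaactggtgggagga
The summits of these 6 peaks were intergenic.

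The 12 strongest peaks lay in intergenic DNA or in introns. Peak 1 had its summit at X position 11094176 with a pooled signal of 531, and its replicate signals were 251 and 273 in replicates 1 and 2. It lay 4010 bp downstream of the nearest protein-coding 5′ end, that of W02H3.3. Peak 2, 1706 bp from F19H6.5, had a signal of 511, with 273 and 229 in the replicates. Peak 3, 2530 bp from ZK899.6, had 489, with 285 and 204. These 3 were close in the pooled list and were high in both replicates.

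Peaks 4 and 7 were also intergenic. Peak 4, 6086 bp from K02D3.1, had 459, with 239 and 217 in the replicates. Peak 7, 1399 bp from F55G7.5, had 410, with 199 and 208. In both the replicates were close. Peak 5 had 457, with 227 and 232, and stood inside mom-1, in an intron. The product of mom-1 is the Porcupine acyltransferase needed for Wnt secretion. The 5′ end nearest to peak 5 was that of cest-16, 3392 bp away. Peak 6 had 424, with 231 and 185, in an intron of Y41G9A.17 and 2640 bp from its 5′ end.

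Peak 8 lay 4915 bp upstream of xol-1, the switch gene that sets sexual fate and dosage compensation in the early embryo. It had a pooled signal of 406, with 236 and 184 in the replicates. A weaker peak of 82.3 lay 200 bp away, 4715 bp from the same 5′ end. These 2 peaks overlapped and shared the same replicate candidate, so the replicates add nothing on the weaker one.

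Peaks 9 to 12 were intergenic. Peak 9, 1782 bp from F20B6.9, had 387, with 211 and 173. Peak 10, 3903 bp from gtr-1, had 358, with 200.8 and 155. Both hold the exact MEX core word, and so does the next. Peak 11, 2603 bp from F22H10.2, had 340, with 185 and 163. Peak 12, 1054 bp from T27A8.7, had 314, with 199 and 114. In all 4 the replicate 1 signal was the higher.

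Past the 12 strongest, peak 16 had 231, with 150 and 77.6 in the replicates, and lay 3489 bp from col-185, a cuticle collagen gene. Peak 17 also had 231 and stood in a coding exon of pks-1, a polyketide synthase gene, 15190 bp from the nearest 5′ end, that of C41A3.2. That was the farthest of the 248. Of the 20 strongest peaks 17 were intergenic, 2 intronic and 1 in a coding exon.

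**Figure D1:**
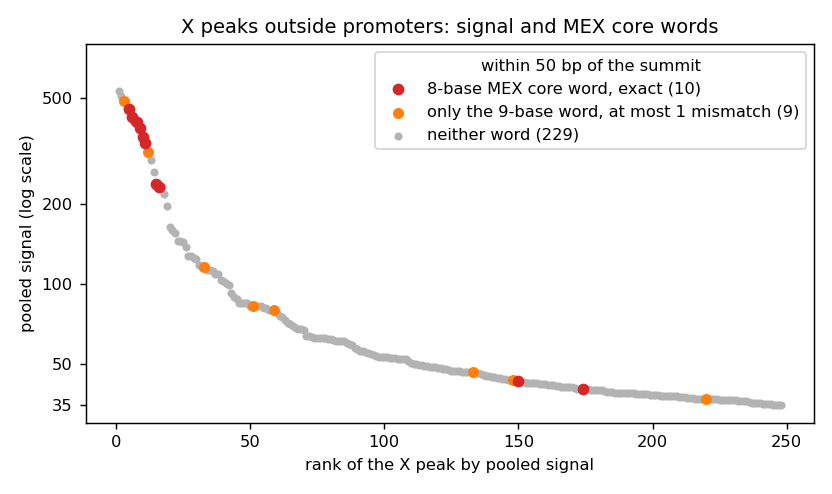
Pooled signal (log axis) of the 248 X peaks outside promoters against rank. Colours mark peaks with the exact MEX core word (10), only the 9-base word with at most 1 mismatch (9), or neither (229) within 50 bp of the summit. The marked peaks are most crowded at the left, where signals run above 200.

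Signals spanned a wide range. The median was 47.3 (95% exact interval 44.7 to 51.5), and the extremes were 35.005 and 531. Split by rank into 4 bands of 62 peaks, signals ran from 75.2 to 531, from 47.5 to 73.0, from 38.986 to 47.1 and from 35.005 to 38.983. No test was made of any difference, because peaks of 1 experiment are not replicates; intervals here cover counting error only. The authors' list of reproducible peaks, made by the IDR method, held 111 of the 248, or 44.8% (38.5 to 51.2%), against 3.97% of the 28727 pooled candidates. That list turns on the same signal that chose the peaks, so the comparison carries no information on them.

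The threshold cut through a continuous run of values. Just inside lay a peak in an exon of a non-coding gene, 1271 bp from nlg-1, the neuroligin gene, and a peak in an intron 3694 bp from unc-2, a calcium channel gene, at 35.04 and 35.005. Just outside lay a candidate in a 5′ UTR 425 bp from cas-1 and one in a 3′ UTR 3738 bp from T21B6.3, at 34.84 and 34.80.

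The replicates were set beside the pooled values, although they were the data that made them. Median replicate signals were 26.7 (range 9.13 to 285) in replicate 1 and 25.003 (range 7.37 to 273) in replicate 2. The pooled signal was a median of 1.01 times the sum of the replicate signals. Both replicates held a candidate at 240 of the 248 peaks, while 7 lacked one in replicate 1 and 1 lacked one in replicate 2. The ratio of replicate 1 to replicate 2 had a median of 1.13 (1.07 to 1.19) and a range of 0.275 to 4.83. The 2 values lay within 2-fold at 204 of the 240 peaks (85.0%).

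Ranks in each replicate gave a stricter reading. A peak among the 2348 highest candidates of both replicates was found at 125 of 248, 50.4% (44.0 to 56.8%), against 51.1% of all pooled candidates at 35 or more. The share was thus near the background. It was 51.2% for X peaks in promoters and 43.3% for autosomal peaks outside promoters. A further 54 peaks ranked that high in replicate 1 alone, 49 in replicate 2 alone and 20 in neither.

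Standing in both replicates followed signal, which the choice of peaks used. The share in both was 100% of the strongest band, then 72.6%, 22.6% and 6.45% in the weaker bands. Among the 20 strongest the replicate ratio ran from 0.831 to 1.93, and the lowest ranks were 113 in replicate 1 and 144 in replicate 2. Across the 240 peaks Spearman's rho was 0.549 and Pearson's r of the log values 0.790. These describe peaks selected on pooled signal and are not independent.

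**Figure D2:**
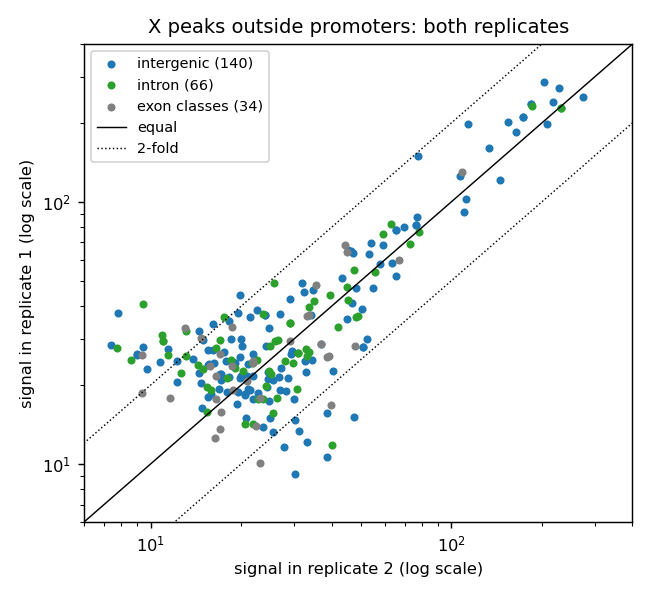
Signal in replicate 1 (vertical) against replicate 2 (horizontal), both on log axes, for the 240 X peaks outside promoters with a candidate in both replicates, coloured by annotation class. The solid line marks equal values and the dotted lines 2-fold; 204 points lie within 2-fold, among them all of the strongest 62.

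Most peaks shared 1 width. Of the 248, 221 (89.1%) were exactly 370 bp wide. The other 27 ran from 95 to 497 bp and included all 20 strongest peaks. There were 10 neighbouring pairs that overlapped, and 20 peaks shared their strongest replicate candidate, and so their replicate value, with another peak.

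X had more of its strong peaks outside promoters than the autosomes. The share was 59.3% (54.4 to 64.1%) of X peaks at 35 or more, against 40.7% (38.5 to 42.9%) on the autosomes. The individual autosomes gave 37.0% on I, 41.8% on II, 38.3% on III, 44.0% on IV and 42.2% on V, all below X. Per Mb of sequence outside promoter windows X had 17.9 peaks, against 13.0 on the autosomes, where II had the highest density at 15.3.

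The top of the pooled list was richer still in these peaks. They made up 15 of ranks 1 to 50 (30%, 17.9 to 44.6%), and X held 57.7% of the 26 peaks there outside promoters. They made up 7.50% of ranks 51 to 250, 8.93% of ranks 251 to 1000 and 11.2% of ranks 1001 to 2348. In those lower bins X held 23.4%, 24.01% and 22.7% of the peaks outside promoters. The ranks are those of the pooled signal that chose the peaks.

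Most of the 248 were intergenic. That class held 144 (58.1%, 51.7 to 64.3%), against 52.2% of autosomal peaks outside promoters and 42.2% of the 3878 weaker X candidates. Introns held 67 (27.02%), against 32.0% and 35.04%. Exons of non-coding genes held 22 (8.87%, 5.64 to 13.1%), against 6.88% and 3.17%. Of those 22, 13 were annotated as ncRNA, 4 as tRNA, 4 as both and 1 as piRNA. Coding exons held 6 (2.42%, 0.893 to 5.19%), against 3.69% and 13.2%. The 3′ UTR class held 9, and no peak lay in a 5′ UTR, which allows a share of up to 1.48% by the exact interval.

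**Figure D3:**
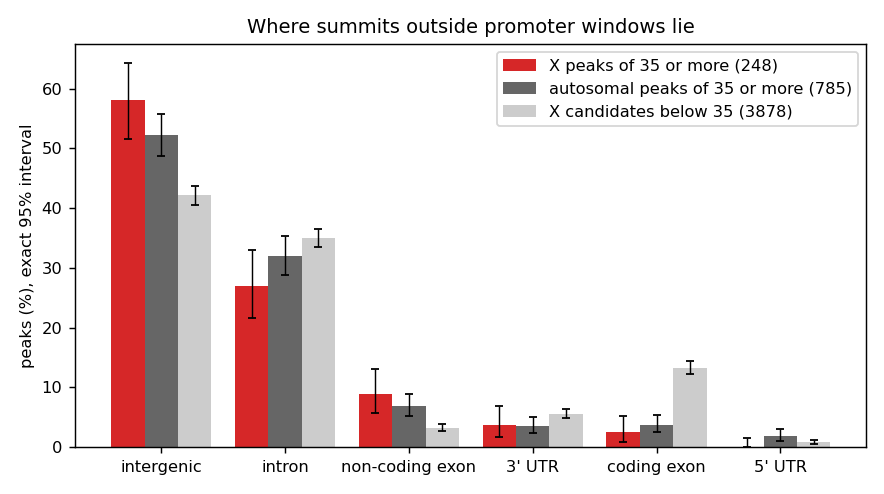
Share of summits (%) in each annotation class for X peaks outside promoters (248), autosomal peaks outside promoters (785) and weaker X candidates outside promoters (3878). Error bars are exact 95% intervals. Intergenic summits made up 58.1% of the X peaks outside promoters, and coding exons 2.42%.

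The 8 strongest intronic peaks stood in named hosts. After mom-1 and Y41G9A.17 came unk-1 with a pooled signal of 156 (76.9 and 78.1 in the replicates). Then came aak-2, which encodes a catalytic subunit of AMP-activated protein kinase, with 144 (68.9 and 72.8). Next was cab-1 with 138 (82.3 and 63.2). The intron of sma-9, a Schnurri-type zinc-finger gene of BMP signalling, had 118 (75.5 and 59.2). That of ldb-1, a LIM domain-binding cofactor gene, had 109 (54.0 and 55.9), and F09A5.3 had 101.2 (55.0 and 47.4). Replicate 1 was the higher in Y41G9A.17, cab-1, sma-9 and F09A5.3, and replicate 2 in the other 4.

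By the rule that set them outside promoters, summits lay away from 5′ ends. The median distance to the nearest protein-coding 5′ end was 2113 bp (1887 to 2440), with a range of 213 to 15190 bp. It was 1926 bp for autosomal peaks outside promoters and 2084 bp for weaker X candidates. The strongest band had a median of 2941.5 bp, and the following bands had 2480.5, 1842.5 and 1850.5 bp. Within 5000 bp lay 221 (89.1%), and 126 (50.8%) were upstream of the nearest 5′ end. That split is shaped by the promoter window, which reaches 1000 bp upstream but 200 bp downstream. A peak less than 1000 bp from its nearest 5′ end could therefore only be downstream of it.

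**Figure D4:**
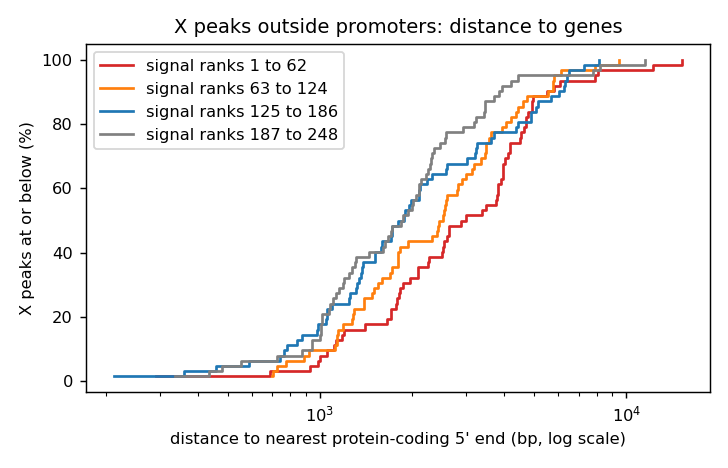
Cumulative share (%) of X peaks outside promoters by distance from summit to the nearest protein-coding 5′ end (bp, log axis), 1 line for each band of 62 by signal rank. The strongest band lies mostly to the right of the others, with a median of 2941.5 bp.

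The peaks were spread over the whole chromosome. Counts per Mb from 1 to 18 were between 6 and 23, the highest in the 13th. The median gap between neighbours was 32951 bp (25425 to 43157). The widest stretch between summits ran from X 3036126 to 3600022, 563896 bp. Some peaks stood close together: 121 of 248 (48.8%, 42.4 to 55.2%) had another within 10 kb. Among the 170 X peaks in promoters, 51 (30%, 23.2 to 37.5%) had another of that set within 10 kb. That set is smaller, so the shares are not on equal terms. Of the 248, 20 were in overlapping pairs, and counting overlapping peaks once gave 45.0% (38.5 to 51.5%) of 238. Both peaks of an overlapping pair are counted in the groups and gene counts that follow. Joining peaks at that distance gave 171 groups, of which 127 were single peaks, 31 were pairs and 13 held 3 or more.

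The largest groups had 8 peaks. One ran from X 6735741 to 6750227 around mdl-1, a Mad-like transcription factor gene, with signals from 36.2 to 128. Another ran from 12512688 to 12536797 around scd-1 and npr-4, with 36.1 to 82.5. A group of 7 from 13341163 to 13358767 lay around ptr-24, mxl-3 and C49F8.15, with 36.8 to 124. Groups of 5 lay around ZK470.4 and ZK470.2 and around cab-1, and groups of 4 lay at unk-1 and at R11.4 and F23A7.1. Within each band of 62 by signal, the share with another peak of the same band within 10 kb was 16.1% in the strongest, then 33.9%, 14.5% and 16.1%.

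Of 2731 X protein-coding genes, 187 (6.85%) had the 5′ end nearest to a peak. A single peak was nearest to 149 of them, 2 peaks to 27 and 3 or more to 11. The highest counts were 7 at scd-1, 6 at mdl-1, and 5 each at cab-1 and mxl-3, the last encoding a Max-like transcription factor. Next were 4 at unk-1, and 3 each at W01H2.2, nhr-3, F09E10.1, bcat-1, R11.4 and ZK470.2. The gene bcat-1 encodes a branched-chain aminotransferase. Nearness does not make a gene a target.

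Genes with an nhr- name, the main naming series of nuclear hormone receptors, were nearest at a higher share than all X genes. Of 23 such genes on X, 8 (34.8%) were nearest to 14 peaks in all, against 6.85% of all X genes. They had 8.28 peaks per 100 kb of the sequence outside promoters nearest to them, against 1.79 over all X genes. Their median stretch of such sequence was 7782 bp, against 3982 bp over all X genes. The gene nhr-3 had peaks of 126, 81.1 and 38.7, nhr-1 had 79.6 and 37.9, nhr-17 had 68.0 and 56.0 and nhr-14 had 57.2 and 47.7. The receptor gene daf-12, which controls dauer entry, had peaks of 62.5 and 38.8 in introns, while sex-1, also a nuclear receptor gene, was nearest to none. Neither carries an nhr- name, so neither is among the 23, and both were named after their values were seen.

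Each other list had at most 2 genes nearest to a peak, to be read against the 6.85% of all X genes. Lists were made by gene name: col- for collagens, ceh- for homeobox genes, and flp- and nlp- for neuropeptides. Receptor channels were matched by acr-, lgc- and glr-, potassium channels on X by twk-, slo- and egl-36, and the other 2 lists by chosen symbols. The counts are thus for the listed names only. Genes of these classes under other names were not counted, and some were nearest to a peak. The list of dosage compensation and sex determination genes had 1 of 6 with a peak (16.7%), xol-1; ceh-39, fox-1, sdc-1, sdc-2 and sex-1 had none. Collagens had 2 of 27 (7.41%), col-185 with 231 and col-181 with 38.98. Homeobox genes had 2 of 18 (11.1%), ceh-54 with 38.8 and ceh-37 with 36.7. Neuropeptide genes had 1 of 32 (3.13%), nlp-76 with 36.6. Receptor channels had 1 of 27 (3.70%), lgc-21 with 69.2, and potassium channels 1 of 12 (8.33%), twk-21 with 36.98. None of the 4 Wnt pathway genes, bar-1, lin-18, mom-1 and vang-1, had the nearest 5′ end to a peak, although mom-1 hosts peak 5. Per 100 kb of nearest sequence outside promoters, against 1.79 over all X genes, there were 4.97 peaks for the dosage compensation and sex determination list, 2.85 for collagens and 2.17 for homeobox genes. There were 1.23 for potassium channels, 0.737 for receptor channels, 0.574 for neuropeptides and 0 for Wnt pathway genes. Each of these rests on 2 peaks or fewer.

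GC content near the summit was intermediate. The median over the summit and 50 bases on each side was 40.6% (39.6 to 42.6%), equal to the 40.6% of autosomal peaks outside promoters. X peaks in promoters had 47.5%, weaker X candidates 32.7% and successive tiles of X of the same length 34.7%. It was 44.6% in the strongest band of 62 and 41.6%, 37.1% and 38.6% in the others.

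The words printed in capitals above stood at a higher share of these peaks than of the groups set beside them, although X promoter peaks were not separated by their intervals. Within 50 bp of the summit, on either strand, GCGCAGGG stood at 10 of 248 peaks (4.03%, 1.95 to 7.29%). It stood at 1.76% of X peaks in promoters, 0 of 785 autosomal peaks outside promoters, 0.0774% of weaker X candidates and 0.0388% of all X tiles. CGCAGGGAG with at most 1 mismatch, which overlaps GCGCAGGG, stood at 19 peaks (7.66%, 4.68 to 11.7%). It stood at 3.53%, 2.93%, 0.232% and 0.450% of those 4 groups in the same order. The intervals of X peaks in promoters, 0.365 to 5.07% for the exact word and 1.31 to 7.52% for the other, overlapped those of the X peaks outside promoters. For autosomal peaks outside promoters they reached up to 0.469% and 4.36% and did not. With windows of 100 bp to either side, the one-mismatch word stood at 10.5% (6.96 to 15.0%) of the X peaks outside promoters and at 5.35% (3.88 to 7.16%) of autosomal peaks outside promoters, and those intervals overlapped. The exact word stood at 5.24% (2.82 to 8.80%) and 0.255% (0.0309 to 0.917%) in those windows. A match describes the letters and does not show what binds there.

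Most of these peaks were among the strongest: 8 of the 10 with the exact word and 14 of the 19 with the one-mismatch word stood in the strongest band. In that band 12.9% held GCGCAGGG, against 0%, 3.23% and 0% in the weaker ones. Of the 20 strongest, 8 held it within 50 bp of the summit, 10 within 100 bp and 11 within the peak. Peaks 1, 2 and 4, printed above, held neither word within 50 bp. Outside the 20 strongest the 50-bp windows with the exact word were peak 150 near dpy-23, a clathrin adaptor subunit gene, with 43.0, and peak 174 in an intron of egl-17, an FGF gene, with 40.1. In replicates 1 and 2 those had 21.6 and 20.6, and 14.2 and 21.9.

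X holds 81 copies of GCGCAGGG, 4.57 per Mb, against 2.82 per Mb on the autosomes. Of the 81 copies, 20 (24.7%, 15.8 to 35.5%) lay inside the 248 peaks, which cover 0.494% of X. X peaks in promoters held 3 (3.70%) on 0.343% of X, and weaker X candidates held 8 (9.88%) on 7.90% of it. Most copies on X were thus outside any pooled candidate: all X candidates together held 34 of the 81.

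Other words, counted in the same windows on both strands, had other patterns. GAGAGA, a GA repeat, stood at 43 peaks (17.3%, 12.8 to 22.6%), against 30% of X peaks in promoters, 30.2% of autosomal peaks outside promoters and 4.91% of X tiles. GAGAGA stood at 27.4% of the strongest band and at 17.7%, 9.68% and 14.5% of the others, at 21.5% of intergenic peaks and at 13.4% of intronic ones. CACGTG, the E-box, stood at 8.47%, against 5.88%, 5.35% and 1.32%. GACGCA stood at 7.66%, against 15.3%, 13.1% and 1.95%. The receptor half-site AGGTCA stood at 2.42%, against 4.12%, 2.80% and 2.64% in the same order. AGTGCA stood at 6.85%, against 6.47%, 4.97% and 4.22%. The word AAGTCA stood at 2.82%, against 2.35%, 4.08% and 5.39%. The GATA word TGATAA stood at 5.24%, against 4.71%, 7.90% and 9.96%. TTTTCAG, a splice-acceptor word, stood at 4.03%, against 2.35%, 6.11% and 8.83%. Shorter parts of the MEX core, which overlap the longer words, were also counted. GCAGGG stood at 8.06%, against 4.71%, 2.04% and 1.06%, and CGCAGGG at 4.44%, against 2.94%, 0.764% and 0.156%. For both, the intervals of X peaks in promoters overlapped those of the X peaks outside promoters.

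**Figure D5:**
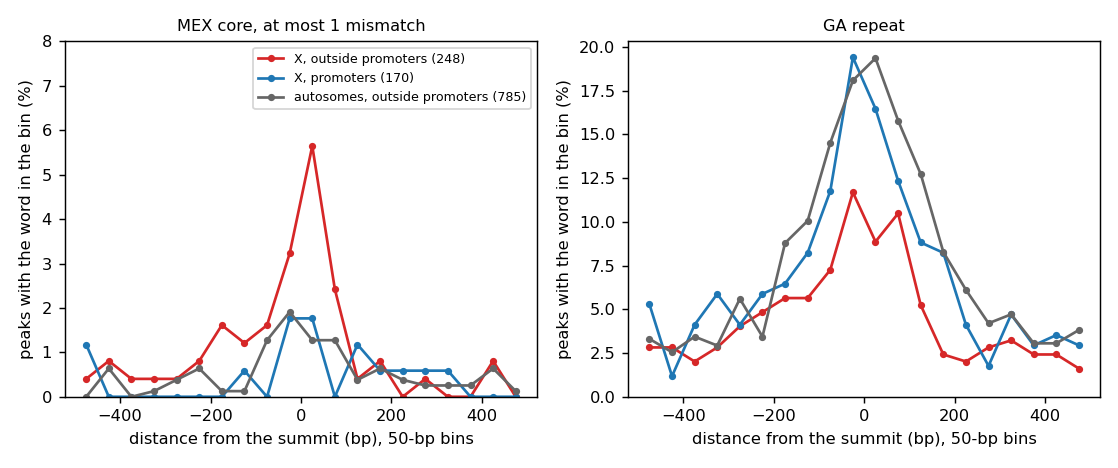
Share of peaks (%) with the word in each 50-bp bin, against distance from the summit (bp), for X peaks outside promoters, X peaks in promoters and autosomal peaks outside promoters. The MEX core word with at most 1 mismatch reaches 5.65% just after the summit on X outside promoters. The highest bin of the GA repeat, in whichever bin beside the summit it falls, holds 11.7% on X outside promoters, against 19.4% in each other group.

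A search of all 8-base words was made after the sequences had been seen. In windows reaching 100 bases to each side of the summit at the 62 strongest peaks, 18 words stood at 8 or more, of which 11 had at least 20 times the share of X tiles of that length. Words were thus picked by their counts at these 62 peaks and by their ratio to tiles. Lower shares at the other peaks and in the tiles follow in part from that choice and are not separate evidence. GCGCAGGG stood at 11 of 62 (17.7%), against 2 of the other 186 peaks, 1 of 196 of the strongest autosomal peaks outside promoters and 0.0851% of tiles. CGCAGGGA stood at 13 (21.0%), and at 3, 0 and 0.110%. GCGAAGGG stood at 11, against 1, 0 and 0.155%, and CGCGCAGG at 11, against 0, 1 and 0.0976%. TCGCGCAG stood at 10, against 0, 0 and 0.151%, and CGAAGGGA at 9, against 3, 0 and 0.225%. TGCGCGAT stood at 8, against 2, 1 and 0.127%. TTATCCAC stood at 8, against 0, 1 and 0.458%, and TATCCACA at 8, against 0, 0 and 0.499%. Several of these words overlap, among them GCGCAGGG with CGCAGGGA and CGCGCAGG, GCGAAGGG with CGAAGGGA, and TTATCCAC with TATCCACA. AGACGCAG stood at 9 of the 62 (14.5%) and was commoner on the autosomes, at 52 of 196 (26.5%).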

How the data were processed

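ChIP-seq of eGFP-NHR-11 was measured in 2 biological replicates of whole L1 larvae. The authors deposited candidate lists for each replicate (30000 each) and pooled (28727), and a list of 1141 reproducible peaks; the signal is the deposited value per peak, of unstated scale, so depth is unknown. Per the labels, fragments were 150 to 350 bp and the build was ce11. The aligner and the peak caller were not given in the sources used here.

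Summits were placed against Ensembl release 115 protein-coding transcripts and words counted in the RefSeq ce11 genome, with Python 3.11.15, numpy 2.4.6, pandas 2.3.3, scipy 1.17.1 and matplotlib 3.10.9. A replicate value is the strongest candidate overlapping by 1 bp or more. Intervals are exact: Clopper-Pearson for shares and order statistics for medians, at 95%. The scripts were tested on simulated data. The peaks, gene lists and words were chosen with earlier results of these data known. Named genes are those nearest to the 12 strongest peaks, hosts of the 8 strongest intronic peaks, those at the threshold, X genes with 3 or more peaks, and up to 3 genes per list. The genes pks-1, C41A3.2, dpy-23, egl-17, daf-12, sex-1 as a receptor gene, nhr-14, ptr-24, npr-4, C49F8.15, F23A7.1 and ZK470.4 fall outside that rule and were named after their values were seen.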

Additional observations from a re-analysis of the deposited data

How the results depend on the processing

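Of 84 alternative values, 59 lay inside the 95% interval of the reported value and 25 outside. With a signal minimum of 50, 65.5% of peaks ranked high in both replicates, the median distance to a 5′ end was 2606 bp and the one-mismatch word stood at 12.7%. With a minimum of 25, 66.5% of X peaks lay outside promoters, 51.2% of the chosen peaks were intergenic, 33.3% ranked high in both replicates, 67.9% had a neighbour within 10 kb, median GC was 34.7%, and the exact word, the one-mismatch word and GAGAGA stood at 1.50%, 2.73% and 11.1%. Promoter limits of 500 and 0 bp gave a share of 70.8% and a distance of 1798 bp; 2000 and 500 bp gave 44.3%, 2641 bp and 42.2% with a neighbour. Requiring overlap of 50% of each peak gave 43.5% in both replicates, a window of 100 bp gave GAGAGA at 29.4%, neighbours within 5 kb were at 39.9%, and the 5′ ends of all genes gave 1273.5 bp. Using 1 replicate alone gave 61.4 to 63.1% outside promoters, 56.3 to 56.4% intergenic, 2299 to 2500 bp, 46.6 to 48.1% with a neighbour, widths of 350 to 360 bp, GC of 36.6 to 38.6%, 3.36 to 4.14% with the exact word, 6.72 to 7.14% with the one-mismatch word and 13.2 to 16.4% with GAGAGA. Counting overlapping peaks once, an alternative chosen after seeing the data, was run for 9 results, not for the share of X peaks outside promoters, and kept those 9 inside their intervals. The cause of these shifts was not tested. No paired analysis was possible because there was 1 group.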
